A study of Homo sapiens with 16 samples.

Results

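The proteasome genes described here are the human entries whose symbol is PSM followed by a letter from A to G and a number, kept where they reached 1 TPM (a transcript level scaled by length and by the total of the library) in at least 3 of 16 RNA-seq libraries. This rule kept 45 of the 47 entries with such a symbol, out of 26830 entries in the deposited table. The 2 entries left out are genes known for tissue-restricted catalytic or structural subunits: PSMA8 was listed at 0 in every library, and PSMB11 reached at most 0.04 TPM. PSMB9, the third immune catalytic subunit, is not analysed here. The members were grouped by role into 3 constitutive catalytic subunits, 2 immune catalytic subunits, 11 other subunits of the 20S core, 6 ATPases and 11 non-ATPases of the 19S particle, 3 chaperones of 19S assembly, 4 chaperones of 20S assembly, the 2 PA28 activator subunits PSME1 and PSME2, and 3 other activators and inhibitors. The genes lie on 17 chromosomes, 7 of them on chromosome 14.

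All libraries came from NOMO-1, an established cell line of acute monocytic leukaemia. In the compound experiment, cells received 100 nM CS1 (3 libraries), 500 nM CS2 (3 libraries) or the solvent DMSO (4 libraries) for 72 h. The labels give only these code names, and the publication of the study names the compounds as bisantrene and brequinar and describes them as inhibitors of FTO, an enzyme that removes the N6-methyladenosine mark from RNA. In the hairpin experiment, cells had been infected with lentivirus carrying a hairpin that targets FTO (shFTO, 3 libraries) or the hairpin labelled shNS (3 libraries) after 1 week of selection in 1 µg/ml puromycin, a selection that both hairpin groups share. Neither the number of hairpins nor that of clones is stated. The labels do not say that the replicates came from separate cultures, so the p-values measure the spread between these libraries, which may be technical.

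The proteasome is the protease that degrades proteins tagged with ubiquitin. Its 20S core is a barrel of 4 stacked rings in which the subunits encoded by PSMB5, PSMB6 and PSMB7 cut the substrate, and the 19S particle at its ends binds, unfolds and feeds the tagged protein. In immune cells and after interferon, newly built cores take PSMB8 in place of PSMB5 and PSMB10 in place of PSMB7, and the PA28 ring of PSME1 and PSME2 opens the core, which favours peptides for presentation on MHC class I. The transcription factor NFE2L1 is known to raise all core and 19S genes together when proteasome activity is low, through antioxidant response elements in their promoters.

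The hairpin reached its target: FTO had 8.12, 7.49 and 8.35 TPM in shFTO libraries, against 31.3, 30.8 and 32.8 TPM in shNS libraries, a log2 fold change of -1.86 ± 0.06 SE, adjusted p = 7.38e-12, while FTO after CS1 and CS2 differed from DMSO by 0.10 and 0.11 and did not pass the test, that with CS1 passing without CS1 replicate 3 (0.16, adjusted p = 0.0274) and both turning negative under other scalings. The myeloid markers CD33 and SPI1 were present in every library, whereas CD14 and MPO stayed below 1 TPM in all of them. The lymphocyte list of 6 markers, with CD3E at 0 throughout, summed to 8.82 to 10.4 TPM in shFTO libraries against 5.02 to 5.4 TPM in shNS libraries, and to 9.35 to 11.5 TPM with CS1 and 7.73 to 9.4 TPM with CS2 against 5.05 to 6.04 TPM with DMSO. The erythroid list reached 1.45 TPM in shFTO libraries and less elsewhere, with HBA1 at 0 throughout, and the list of epithelial cells and fibroblasts lay between 5.45 and 10.8 TPM. The summed level of the 10 myeloid markers differed between groups, at 3000 to 3590 TPM in shFTO libraries against 836 to 858 TPM in shNS libraries, and at 1000 to 1020 TPM with CS1 and 1110 to 1150 TPM with CS2 against 651 to 686 TPM with DMSO; the part of these differences in the results was not tested. LYZ, the gene of lysozyme, had 2049.7, 2048 and 2579 TPM in shFTO libraries against 166, 163 and 159 TPM in shNS libraries, and without it the other 9 myeloid markers summed to 952 to 1010 TPM in shFTO libraries against 671 to 695 TPM in shNS libraries, while CEBPA was lower in shFTO libraries (216, 216 and 223 TPM against 249.6, 257 and 253 TPM). Genes of cytosolic ribosomal proteins made up 14.2% of TPM with CS1, 8.34% with CS2 and 15.3% with DMSO, against 17.7% in shFTO and 17.8% in shNS libraries. TPM values are relative to each library's total and carry no depth, and in bulk RNA fewer cells with a transcript and less of it per cell cannot be told apart.

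Tests used limma on log2(TPM + 1) over 14951 entries, with Benjamini-Hochberg adjusted p-values and a threshold of 0.05. Fold changes are on that log2 scale, which understates changes of low genes. The median change over all entries tested was not 0: it was 0.09 for CS1 against DMSO, 0.20 for CS2 against DMSO and 0.07 for shFTO against shNS, so counts are also given after median-of-ratios scaling, which centres the libraries, and where stated after quantile normalization. Exons of 17 members overlap those of a gene on the opposite strand, among them PSMB8 with PSMB8-AS1, and whether reads were assigned by strand is not stated. Several proteasome genes have processed pseudogenes, and how reads shared with these were assigned is not stated either.

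Proteasome transcripts were abundant and unequal. The members' mean levels had a median of 156 TPM with CS1, 153 TPM with CS2, 154 TPM with DMSO, 92.6 TPM in shFTO libraries and 134 TPM in shNS libraries. Within a group the highest member stood 20.9 to 29.5 times above the lowest. The highest was PSMA4, a structural subunit of the outer ring, in the 3 groups of the compound experiment, and PSMB4, a structural subunit of the inner ring, in the 2 hairpin groups. The lowest were PSMG4, a chaperone of core assembly, and PSMD9, a chaperone of 19S assembly. All members together summed to 0.503% of TPM in shFTO libraries against 0.71% in shNS libraries, and to 0.811% with CS1 and 0.816% with CS2 against 0.835% with DMSO.

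**Figure D1:**
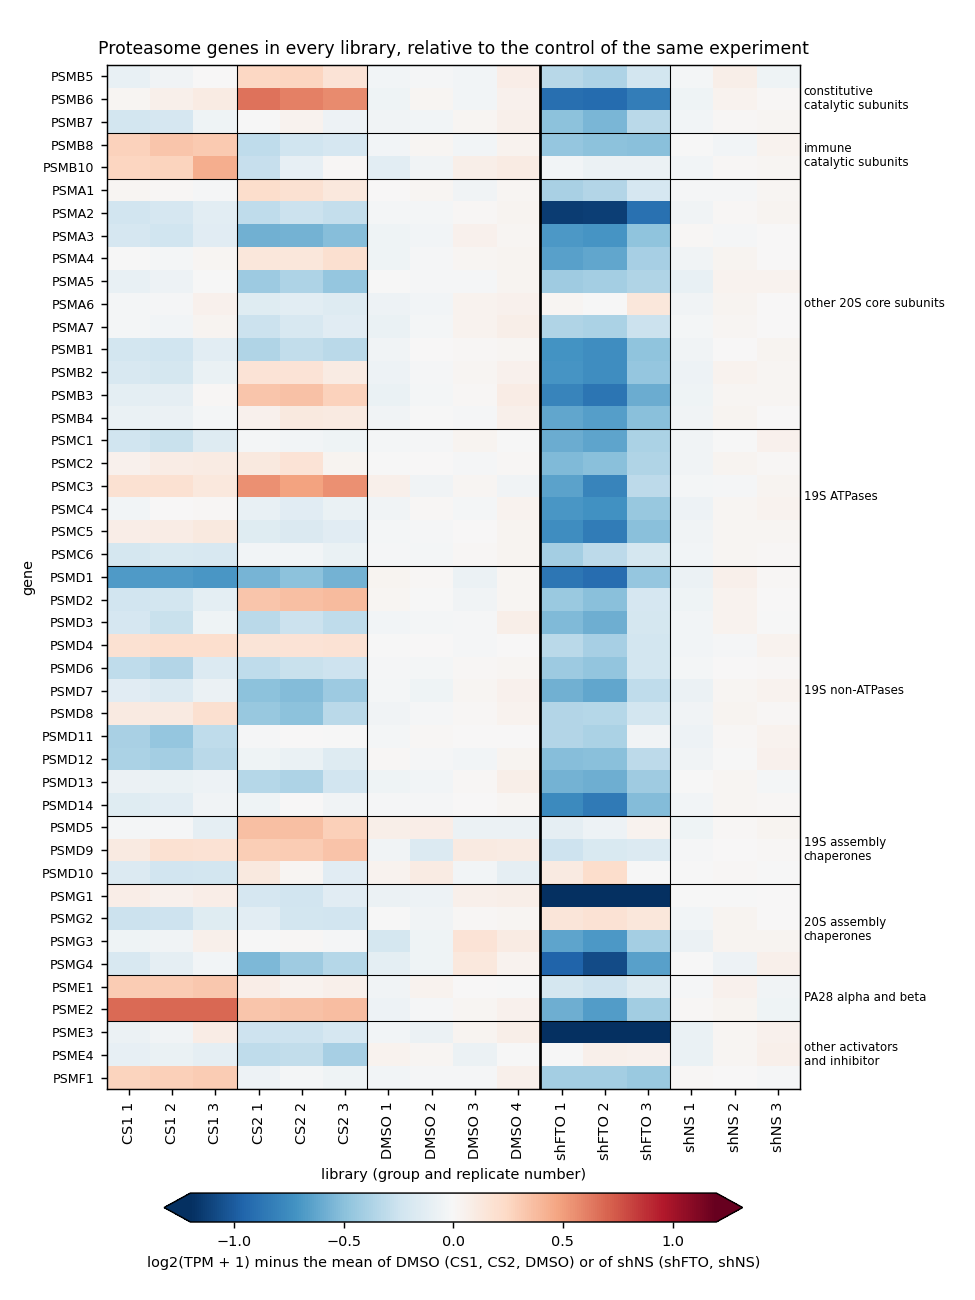
Each row is a proteasome gene, grouped by role, and each column a library; colour gives log2(TPM + 1) minus the mean of the control libraries of the same experiment (DMSO or shNS). The shFTO columns are blue for most genes (39 called lower), while the CS1 and CS2 columns hold both colours, with PSME1, PSME2 and PSMF1 red and PSMD1 blue in all CS1 libraries.

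Transcripts across the whole proteasome were lower with the FTO hairpin. In shFTO against shNS, 39 of the 45 members fell and 1 rose, where 24.5% of all entries tested fell and 31.9% rose. The members' median change was -0.46, against 0.07 over all entries, and it lay 0.54 below it. In 39 members every shFTO library stood below every shNS library, an arrangement found in 26.4% of all entries; these are the members called lower, with PSMB10 in place of PSMD11. In 1 member every shFTO library stood above, where 38.3% of all entries did. After median-of-ratios scaling 39 fell and 0 rose, after quantile normalization 39 fell and 2 rose, and leaving out any 1 library gave 38 to 39 that fell. After median-of-ratios scaling 27.8% of all entries fell and 29.2% rose, and after quantile normalization 29.4% fell and 27.2% rose. Of the shFTO libraries, replicate 3 had the highest level in 39 of the 45 members, and of the shNS libraries replicate 1 had the lowest in 36, so replicate 3 stood nearer to the controls.

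The catalytic subunits fell together but unequally. PSMB6, which carries the caspase-like site, had 84.8, 83.3 and 88.8 TPM in shFTO libraries against 153, 164 and 160.5 TPM in shNS libraries, a change of -0.89 ± 0.039 SE, adjusted p = 1.8e-10. PSMB7, the trypsin-like site, had 164, 158 and 185 TPM against 225, 233 and 235 TPM in shNS libraries (-0.45 ± 0.056 SE, adjusted p = 7.1e-06). PSMB5, the chymotrypsin-like site and the target of bortezomib, had 72.5, 70.6 and 78.7 TPM against 90.5, 96.8 and 88.4 TPM in shNS libraries (-0.31 ± 0.048 SE, adjusted p = 6.61e-05). The groups did not overlap for any of these 3 genes, and the fall of PSMB6 was the largest of them.

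The immune partners did not move as a pair. PSMB8 had 106, 104 and 103 TPM in shFTO libraries against 146, 143 and 151 TPM in shNS libraries, lower in every library (-0.48 ± 0.035 SE, adjusted p = 3.17e-08). PSMB10 had 51.00, 49.8 and 49.9 TPM against 51.1, 52.7 and 53.3 TPM in shNS libraries, a difference of -0.06 ± 0.072 SE, adjusted p = 0.513 that did not pass the test. The PSMB10 groups stood next to each other without overlap, and all 6 libraries lay between 49.8 and 53.3 TPM.

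Of the 11 other core subunits, 10 fell, with a median of -0.60. PSMA2, a structural subunit of the outer ring, had 115, 116 and 136 TPM in shFTO libraries against 246, 256 and 260.0 TPM in shNS libraries (-1.05 ± 0.053 SE, adjusted p = 7.04e-10). PSMB3, PSMB1, PSMB2, PSMA3 and PSMB4 followed with changes between -0.75 and -0.60. PSMA6, a neighbour of PSMA2 in the same ring, was the exception: it had 163, 161 and 178 TPM in shFTO libraries against 156, 165 and 162 TPM in shNS libraries, overlapping groups that did not pass the test (0.05 ± 0.041 SE, adjusted p = 0.305), although it was called higher after quantile normalization (0.14, adjusted p = 0.000372).

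The 19S particle fell as a whole, with 6 of 6 ATPases and 11 of 11 non-ATPases. PSMC5, an ATPase of the base, had 89.1, 83.3 and 106 TPM in shFTO libraries against 146, 152 and 152 TPM in shNS libraries (-0.70 ± 0.06 SE, adjusted p = 1.89e-07), the largest change of the ATPases. PSMC6 had 63.8, 68.5 and 73.4 TPM in shFTO libraries against 83.2, 86.6 and 86.1 TPM in shNS libraries, the smallest at -0.31 ± 0.041 and still without overlap. PSMD1, the large scaffold of the base, had 49.2, 47.6 and 65.7 TPM against 86.3, 94.5 and 91.8 TPM in shNS libraries (-0.75 ± 0.085 SE, adjusted p = 3.14e-06). PSMD14, the deubiquitinase of the lid, fell by 0.71 on the same scale. The smallest change of the non-ATPases was that of PSMD11, a lid subunit, with 57.9, 56.5 and 71.7 TPM in shFTO libraries against 70.7, 74.98 and 76.4 TPM in shNS libraries (-0.26 ± 0.069 SE, adjusted p = 0.00471), where shFTO replicate 3 lay within the shNS range.

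The extremes of the whole set were not subunits of the 26S proteasome. PSME3, the PA28-gamma activator of nuclear proteasomes, had 26.6, 26.5 and 35.97 TPM in shFTO libraries against 85.5, 91.9 and 93.3 TPM in shNS libraries (-1.59 ± 0.088 SE, adjusted p = 2.07e-09). PSMG1, which with PSMG2 forms the dimer that starts the assembly of the outer ring, had 47.1, 48.2 and 51.9 TPM against 134, 134 and 134 TPM in shNS libraries (-1.43 ± 0.045 SE, adjusted p = 6.77e-12). Its partner PSMG2 had 97.6, 99.5 and 97.01 TPM against 86.2, 90.4 and 88.5 TPM in shNS libraries, the 1 member called higher (0.15 ± 0.038 SE, adjusted p = 0.00361), a call lost after median-of-ratios scaling (0.10, adjusted p = 0.0912). The partners of this dimer differed in direction, with no overlap between groups in either gene. PSMG3 and PSMG4, which form the second chaperone pair, both fell, by 0.57 and 0.90 on the log2 scale.

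The other regulators were divided. PSMF1, the inhibitor PI31, had 25.5, 25.4 and 24.7 TPM in shFTO libraries against 34.4, 34.02 and 33.6 TPM in shNS libraries (-0.42 ± 0.034 SE, adjusted p = 1.14e-07). PSME4, the PA200 activator, had 54.1, 56.6 and 56.5 TPM against 51.4, 55.1 and 56.6 TPM in shNS libraries, overlapping groups with a change of 0.04 that did not pass the test and was -0.01 after median-of-ratios scaling. PA28 fell in both of its subunits. PSME2 had 121, 114 and 136 TPM in shFTO libraries against 184, 187 and 176 TPM in shNS libraries (-0.56 ± 0.05 SE, adjusted p = 3.01e-07), and PSME1 had 165, 161 and 172 TPM in shFTO libraries against 189, 199 and 186 TPM in shNS libraries (-0.20 ± 0.033 SE, adjusted p = 0.000102). The fall was the larger in PSME2, and neither gene had overlapping groups. Of the 3 chaperones of 19S assembly, PSMD9 had 17.2, 18.2 and 18.4 TPM in shFTO libraries against 20.5, 20.8 and 20.9 TPM in shNS libraries and fell (-0.20 ± 0.06 SE, adjusted p = 0.0119), a call lost without shFTO replicate 1 (adjusted p = 0.0504), while PSMD5 at -0.04 did not pass the test. PSMD10, known as the oncoprotein gankyrin, had 77.6, 83.7 and 72.1 TPM in shFTO libraries against 71.8, 72.8 and 71.8 TPM in shNS libraries, overlapping groups whose change of 0.10 did not pass either.

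**Figure D2:**
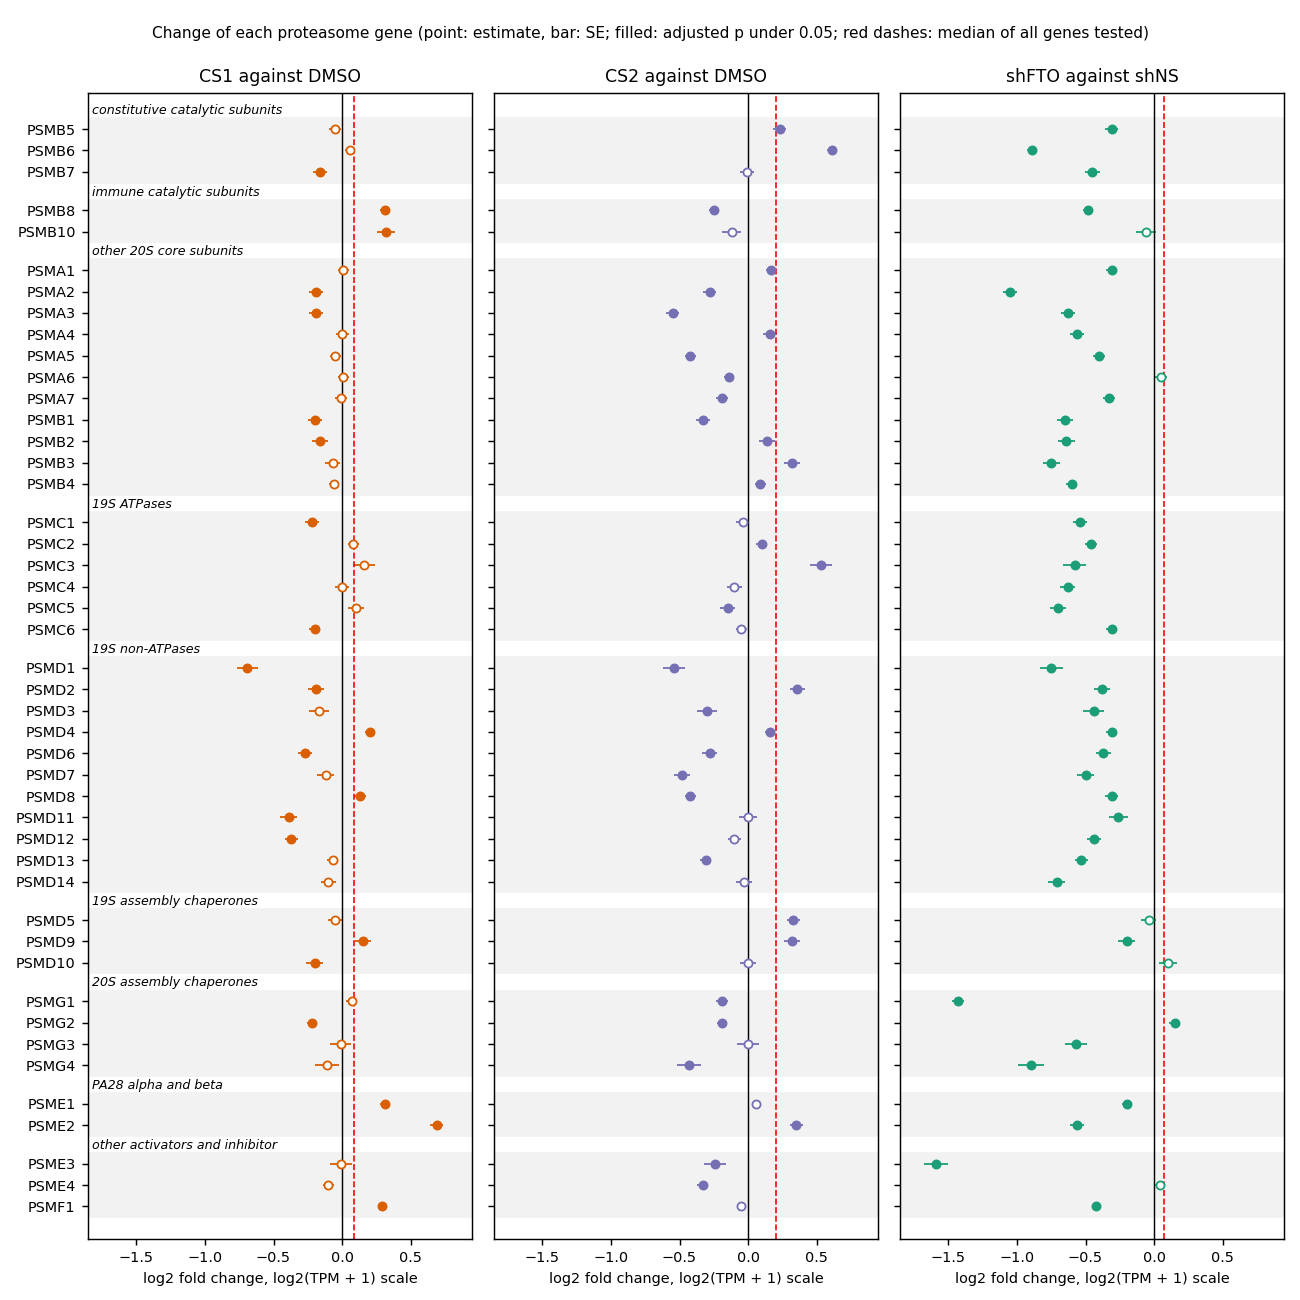
Log2 fold change of each proteasome gene (point, with its standard error as a bar) on the log2(TPM + 1) scale in 3 comparisons, with genes in rows by role; filled points passed an adjusted p of 0.05 and red dashes mark the median of all entries tested (0.09, 0.20 and 0.07). In the shFTO panel 39 points are filled and left of 0, with PSME3 and PSMG1 farthest, while in the CS1 and CS2 panels points lie on both sides.

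With CS1 the immune and PA28 genes were higher, while most genes of the 26S proteasome were lower or did not pass the test. In CS1 against DMSO, 8 of the 45 members rose and 14 fell, where 37.5% of all entries rose and 14.3% fell. The median change of the members was -0.05, against 0.09 over all entries. In 10 members every CS1 library stood above every DMSO library and in 19 below, where 38.2% and 15.7% of all entries did. After median-of-ratios scaling 4 members were called higher (PSMB8, PSME1, PSME2 and PSMF1) and 26 lower, where 25.9% of all entries were higher and 26.6% lower. CS1 replicate 3 had the highest level of the CS1 libraries in 35 of the 45 members, and DMSO replicate 4 that of the DMSO libraries in 32. Ribosomal RNA entries took 1.04 to 1.33% of TPM with CS1 against 1.77 to 4.58% with DMSO, and their part in these counts was not tested.

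PSME2, the beta subunit of PA28, had 249.5, 251 and 250.2 TPM with CS1 against 148, 154, 158 and 161 TPM with DMSO, the largest rise of any member (0.69 ± 0.047 SE, adjusted p = 1.84e-08). PSME1, the alpha subunit, had 184, 184 and 187 TPM with CS1 against 145, 153, 149 and 149 TPM with DMSO (0.31 ± 0.031 SE, adjusted p = 8.7e-07). Every CS1 library stood above every DMSO library for both, and the CS1 libraries lay close together. The immune catalytic subunit PSMB8 had 129.7, 135 and 133 TPM with CS1 against 105, 109, 105 and 110.3 TPM with DMSO (0.31 ± 0.033 SE, adjusted p = 1.8e-06). PSMB10 had 52.5, 53.1 and 59.9 TPM with CS1 against 40.2, 42.6, 46.02 and 47.03 TPM with DMSO (0.32 ± 0.067 SE, adjusted p = 0.00095), a call lost after median-of-ratios scaling (0.19, adjusted p = 0.0698) and after quantile normalization (0.17, adjusted p = 0.076). Groups did not overlap for either gene, although CS1 replicate 3 of PSMB10 stood above the other CS1 libraries. The antisense entry PSMB8-AS1 rose as well (0.41 ± 0.069 SE, adjusted p = 0.000138).

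**Figure D3:**
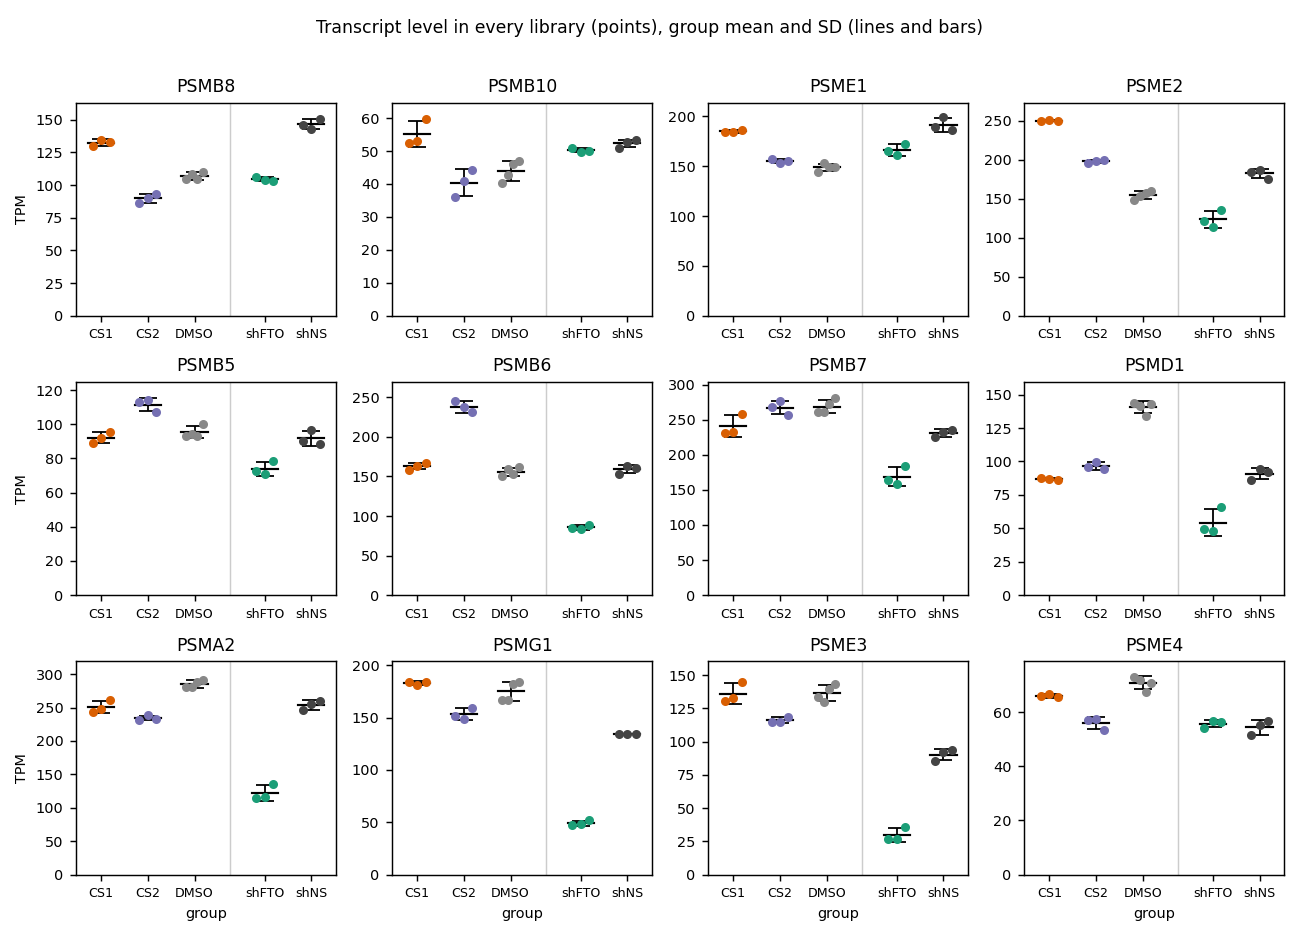
TPM of 12 proteasome genes in every library (points), with group mean (line) and SD (bar), for CS1, CS2 and DMSO on the left of each panel and shFTO and shNS on the right. PSME2 shows 3 CS1 points near 250.2 TPM above all DMSO points, and PSMG1, PSME3 and PSMA2 show the shFTO points far below the shNS points.

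PSME1 and PSME2 lie close together on chromosome 14 and their promoters share letters with that of PSMB10. In GENCODE release 29 on GRCh38, PSME1 spans chr14:24136158-24138967 on the plus strand and PSME2 chr14:24143362-24147570 on the minus strand, PSMB10 spans chr16:67934502-67937087 and PSMB8 chr6:32840717-32844703, both on the minus strand. RefSeq promoter windows (GRCh38.p14, 250 bases before to 50 after the start of the gene) matched 39 of the 45 members and were searched on both strands for 3 motifs. The windows are shown for the 3 genes of the immune and PA28 groups that hold an interferon-stimulated response element core, from 200 bases before to 20 after the start, 5′ to 3′ on the strand of the gene, with matches in capitals. Starts are those of RefSeq, which lie inside the GENCODE spans given, by 36 bases in PSME1, 960 bases in PSME2 and 237 bases in PSMB10.

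PSME1, chr14:24135994-24136213, plus strand: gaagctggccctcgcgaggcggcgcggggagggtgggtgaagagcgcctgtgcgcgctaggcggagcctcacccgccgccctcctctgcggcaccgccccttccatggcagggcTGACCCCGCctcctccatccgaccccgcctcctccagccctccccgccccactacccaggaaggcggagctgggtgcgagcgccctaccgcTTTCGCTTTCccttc

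PSME2, chr14:24146591-24146810, minus strand: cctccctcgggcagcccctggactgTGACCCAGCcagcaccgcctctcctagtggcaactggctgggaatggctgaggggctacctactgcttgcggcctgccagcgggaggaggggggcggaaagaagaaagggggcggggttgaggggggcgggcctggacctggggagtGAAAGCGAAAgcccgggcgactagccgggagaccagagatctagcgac

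PSMB10, chr16:67936831-67937050, minus strand: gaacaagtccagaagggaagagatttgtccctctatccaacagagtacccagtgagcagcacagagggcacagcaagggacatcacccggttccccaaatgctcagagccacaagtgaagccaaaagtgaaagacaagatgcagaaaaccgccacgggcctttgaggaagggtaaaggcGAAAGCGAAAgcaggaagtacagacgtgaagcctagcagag

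The interferon-stimulated response element core, searched as GAAANNGAAA, was found in the same letters, GAAAGCGAAA, in all 3 windows: 28 bases before the start of PSME2, 21 bases before that of PSMB10, and, on the opposite strand, 5 bases after that of PSME1. It was in 6 of the 39 member windows (15.4%), against 3.65% of all windows and 2.92% of those of entries tested; the other members with it were PSMA4, PSMB4 and PSMG4. PSMG4 held the same 10 letters 33 bases before its start, and it did not pass the test with CS1 and fell with CS2 and with the hairpin. The antioxidant response element core, searched as TGACNNNGC, marks the first capitals in PSME1 and PSME2 and was in 12 of 39 windows (30.8%), against 13.6% of all windows and 15.3% of those of entries tested. The interferon-gamma-activated site, searched as TTCNNNGAA, was in 4 of 39 windows (10.3%), against 7.88% of all windows. The window of PSMB8 held none of these 3 strings, which says nothing about factors bound there. In CS1 against DMSO the 6 members with the interferon core had a median change of 0.16 with 3 called higher. The 33 without it had a median of -0.07 with 4 called higher, where 37.5% of all entries were called higher. The 3 of 6 thus lie near the share of all entries, and 1 of those 3, PSMB10, lost its call under both scalings. With the hairpin the same 6 had a median of -0.56 with 5 called lower, against -0.44 with 28 called lower among the 33. In shFTO against shNS the 12 members with the antioxidant core had a median of -0.44 with 9 called lower, against -0.48 with 24 called lower among the 27 without it. Over all entries 24.5% were called lower with the hairpin. A match is a string in the sequence, not a site shown to be bound.

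Outside the immune group, CS1 moved a few regulatory genes. PSMF1 had 42.5, 43.03 and 43.7 TPM with CS1 against 34.2, 34.8, 34.6 and 36.8 TPM with DMSO (0.29 ± 0.032 SE, adjusted p = 2.77e-06). PSMD4, the ubiquitin receptor of the 19S particle, had 279, 282 and 283 TPM with CS1 against 245, 247, 243 and 246 TPM with DMSO (0.20 ± 0.035 SE, adjusted p = 0.000278), a call lost after median-of-ratios scaling (0.07, adjusted p = 0.221). The lid subunit PSMD8 at 0.13 and the chaperone PSMD9 at 0.15, the second with 28.7, 30.3 and 30.1 TPM with CS1 against 25.7, 23.7, 28.8 and 28.6 TPM with DMSO, were called higher as deposited and under neither scaling, and PSMD9 also lost its call without CS1 replicate 2 or 3 or DMSO replicate 1 or 2, and PSMD8 without CS1 replicate 3.

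The 4 largest falls with CS1 were in the 19S particle. PSMD1, the scaffold of the base, had 87.5, 87.1 and 86.4 TPM with CS1 against 144, 142, 134 and 143 TPM with DMSO (-0.69 ± 0.08 SE, adjusted p = 4.47e-06). The lid subunits PSMD11 (-0.39 ± 0.064 SE, adjusted p = 0.000136), PSMD12 (-0.37 ± 0.047 SE, adjusted p = 1.17e-05) and PSMD6 (-0.27 ± 0.054 SE, adjusted p = 0.000577) also fell. Every CS1 library of these 4 genes stood below every DMSO library. Of the 11 non-ATPases 5 fell and 2 rose, and of the 6 ATPases 2 fell and 0 rose. PSMC1, an ATPase of the base, had 201, 198 and 214 TPM with CS1 against 235, 236, 244 and 238 TPM with DMSO (-0.22 ± 0.049 SE, adjusted p = 0.00154), the lowest of the ATPases. The highest was PSMC3, with 101, 101 and 97.2 TPM with CS1 against 92.9, 86.3, 90.8 and 86.7 TPM with DMSO, at 0.16 (adjusted p = 0.0965), not past the threshold although the groups did not overlap.

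In the core, 4 of the 11 structural subunits fell with CS1 and 0 rose. PSMB1 had 402, 396 and 428 TPM with CS1 against 455, 469.9, 472 and 475 TPM with DMSO (-0.20 ± 0.052 SE, adjusted p = 0.0057), the lowest of them, and PSMA6 was the highest at 0.01, with 314, 315 and 330.1 TPM with CS1 against 306, 311, 327 and 329 TPM with DMSO, overlapping groups, turning to -0.12 after median-of-ratios scaling. Of the constitutive catalytic subunits, PSMB7 had 231, 233 and 259 TPM with CS1 against 261, 262, 272 and 280.4 TPM with DMSO (-0.16 ± 0.052 SE, adjusted p = 0.0195), a call lost without CS1 replicate 1 or 2 or DMSO replicate 4. PSMB5 had 89.2, 92.2 and 95.3 TPM with CS1 against 93.2, 94.4, 92.9 and 100.4 TPM with DMSO, a difference of -0.05 that passed the test only after scaling (-0.18, adjusted p = 0.00846 with median-of-ratios scaling and -0.15, adjusted p = 0.00511 with quantile normalization). PSMB6 had 159, 163 and 167 TPM with CS1 against 151, 159, 153 and 162 TPM with DMSO, a difference of 0.06 that did not pass the test and turned to -0.07 and -0.05 under these scalings. The groups overlapped for PSMB5 and PSMB6 and not for PSMB7.

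Among the chaperones and other activators, PSMG2 had 89.8, 90.3 and 97.3 TPM with CS1 against 108, 105, 109 and 109 TPM with DMSO (-0.22 ± 0.035 SE, adjusted p = 0.000109), and its partner PSMG1 had 184, 181 and 185 TPM with CS1 against 167, 167, 182 and 184 TPM with DMSO, overlapping groups at 0.07 that did not pass the test and turned to -0.06 after median-of-ratios scaling and -0.03 after quantile normalization. PSMD10 had 62.7, 59.9 and 60.2 TPM with CS1 against 72.2, 75.1, 68.8 and 65.2 TPM with DMSO (-0.20 ± 0.061 SE, adjusted p = 0.0122). PSME4 had 65.8, 66.8 and 65.5 TPM with CS1 against 73.1, 71.8, 67.5 and 70.7 TPM with DMSO and missed the threshold (-0.10 ± 0.04 SE, adjusted p = 0.0557), passing it after median-of-ratios scaling (-0.23, adjusted p = 2.53e-05) and without DMSO replicate 3 (-0.12, adjusted p = 0.0286).

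With CS2 proteasome genes moved in both directions. In CS2 against DMSO, 14 of the 45 members rose and 19 fell, where 49.5% of all entries rose and 24.6% fell. The members' median was -0.05, against 0.20 over all entries. In 14 members every CS2 library stood above every DMSO library and in 23 below, where 48.0% and 24.2% of all entries did. After median-of-ratios scaling 4 were called higher (PSMB6, PSMC3, PSMD5 and PSME2) and 33 lower, where 36.5% of all entries were higher and 35.3% lower. Ribosomal RNA entries took 0.828 to 2.95% of TPM with CS2, overlapping the DMSO range.

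PSMB6 had 246, 237 and 231 TPM with CS2 against 151, 159, 153 and 162 TPM with DMSO, the largest rise (0.61 ± 0.036 SE, adjusted p = 7.22e-10). PSMB5 had 113, 114 and 107 TPM with CS2 against 93.2, 94.4, 92.9 and 100.4 TPM with DMSO (0.23 ± 0.045 SE, adjusted p = 0.000359), a rise that was 0.01 after median-of-ratios scaling and -0.01 after quantile normalization. PSMB7 had 268, 277 and 258 TPM with CS2 against 261, 262, 272 and 280.4 TPM with DMSO, overlapping groups with a difference of -0.01 that did not pass the test, although it was called lower after median-of-ratios scaling (-0.23, adjusted p = 0.00305). The 3 catalytic sites were thus not moved alike, and PSMB6 alone of them kept its rise under both scalings.

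The 19S ATPase PSMC3 had 131, 125 and 131 TPM with CS2 against 92.9, 86.3, 90.8 and 86.7 TPM with DMSO (0.53 ± 0.078 SE, adjusted p = 1.72e-05), and PSMD2, the second large scaffold of the base, had 412, 420.0 and 425 TPM with CS2 against 332, 325, 316 and 332 TPM with DMSO (0.36 ± 0.056 SE, adjusted p = 2.96e-05), a call lost after median-of-ratios scaling (adjusted p = 0.0589). The other scaffold, PSMD1, went the opposite way, with 95.5, 99.8 and 94.4 TPM with CS2 against 144, 142, 134 and 143 TPM with DMSO (-0.54 ± 0.08 SE, adjusted p = 1.95e-05). The groups did not overlap for any of these 3 genes. The 19S assembly chaperone PSMD5 had 62.9, 62.95 and 59.8 TPM with CS2 against 51.2, 51.7, 46.4 and 46.3 TPM with DMSO (0.33 ± 0.05 SE, adjusted p = 2.1e-05). It was not called after quantile normalization (adjusted p = 0.0621), and the rise of PSMD9 (0.32 ± 0.057) was called under neither scaling. PSMD10 had 76.1, 71.4 and 63.7 TPM with CS2 against 72.2, 75.1, 68.8 and 65.2 TPM with DMSO, overlapping groups that did not pass the test (0.00) and passed after median-of-ratios scaling (-0.22, adjusted p = 0.0016). The core subunit PSMB3 rose (0.32 ± 0.058 SE, adjusted p = 0.000136), a call lost after median-of-ratios scaling (adjusted p = 0.195).

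Among the falls, the core subunit PSMA3 had 183, 185 and 192 TPM with CS2 against 265, 268, 285 and 279.6 TPM with DMSO (-0.55 ± 0.048 SE, adjusted p = 5.78e-08). PSMA5, of the same ring, fell by 0.42 on the log2 scale, as did the lid subunit PSMD8, and the lid subunit PSMD7 fell by 0.48. PSMG4 had 19.5, 21.2 and 22.5 TPM with CS2 against 26.4, 27.7, 31.5 and 29.7 TPM with DMSO (-0.43 ± 0.088 SE, adjusted p = 0.000372), and PSMG1 (-0.19 ± 0.042) and PSMG2 (-0.19 ± 0.035) fell as well. The fourth chaperone, PSMG3, had 107, 108 and 106 TPM with CS2 against 93.2, 104, 120.4 and 115 TPM with DMSO, overlapping groups at 0.00 that did not pass the test, that were -0.22 after median-of-ratios scaling (adjusted p = 0.0318). PSME4 had 57.1, 57.5 and 53.3 TPM with CS2 against 73.1, 71.8, 67.5 and 70.7 TPM with DMSO (-0.33 ± 0.04 SE, adjusted p = 2.1e-06), and PSME3 fell (-0.24 ± 0.082 SE, adjusted p = 0.0179). PSMF1 had 33.6, 34.4 and 33.9 TPM with CS2 against 34.2, 34.8, 34.6 and 36.8 TPM with DMSO, overlapping groups at -0.05 that did not pass the test and passed after median-of-ratios scaling (-0.26, adjusted p = 6.29e-05). PSMC5 had 170.4, 167 and 172 TPM with CS2 against 186, 187, 190.1 and 193 TPM with DMSO and fell by 0.15 (adjusted p = 0.0211), a call lost without CS2 replicate 2 (adjusted p = 0.0656).

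The immune and PA28 genes did not rise together with CS2. PSME2 had 196, 198 and 200.3 TPM with CS2 against 148, 154, 158 and 161 TPM with DMSO (0.35 ± 0.047 SE, adjusted p = 6.45e-06). PSME1 had 157, 153 and 155 TPM with CS2 against 145, 153, 149 and 149 TPM with DMSO, a difference of 0.06 that did not pass the test (adjusted p = 0.0965) and was -0.16 after either scaling. PSMB8 had 86.4, 90.4 and 93.1 TPM with CS2 against 105, 109, 105 and 110.3 TPM with DMSO, and it fell (-0.25 ± 0.033 SE, adjusted p = 4.9e-06). PSMB10 had 35.99, 40.9 and 44.2 TPM with CS2 against 40.2, 42.6, 46.02 and 47.03 TPM with DMSO, overlapping groups with a difference of -0.12 that did not pass the test (adjusted p = 0.112) and passed after median-of-ratios scaling (-0.34, adjusted p = 0.00225) and without CS2 replicate 3 (-0.19, adjusted p = 0.0217) or DMSO replicate 1 (-0.16, adjusted p = 0.0405). The antisense transcript PSMB8-AS1 had 55.6, 54.2 and 47.5 TPM with CS2 against 26.7, 24.9, 23.8 and 24.9 TPM with DMSO (1.03 ± 0.069 SE, adjusted p = 2.48e-09), so the entries of this locus moved in opposite directions; its part in the PSMB8 value was not tested.

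**Figure D4:**
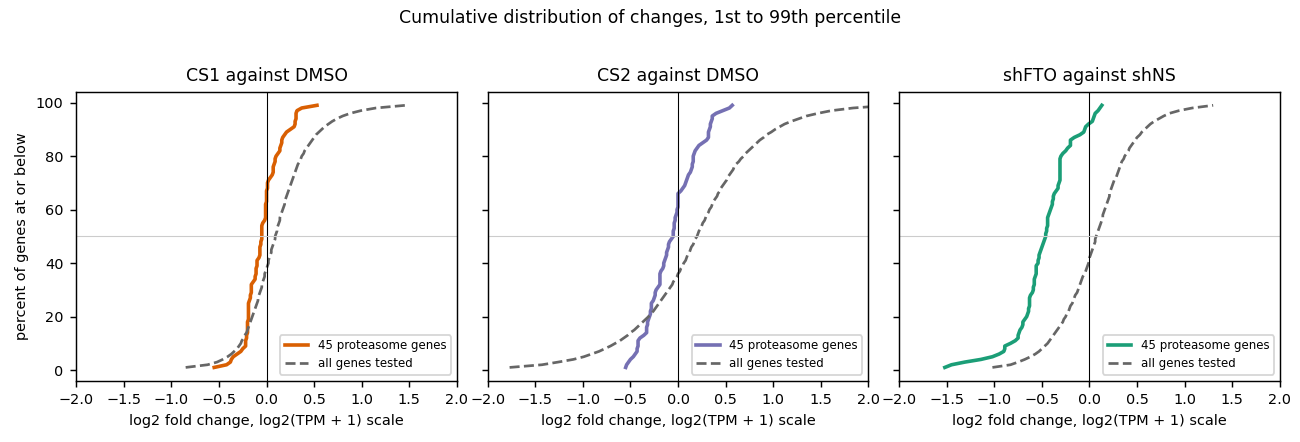
Cumulative percent of genes (vertical axis) at or below each log2 fold change (horizontal axis, log2(TPM + 1) scale), for the 45 proteasome genes (solid) and all entries tested (dashed), from the 1st to the 99th percentile. The solid curve for shFTO lies left of the dashed one throughout, with medians of -0.46 and 0.07, while for CS1 and CS2 it is steeper, with medians of -0.05 against 0.09 and 0.20.

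CS1 and CS2 libraries were also set against each other, at doses that differ (100 nM and 500 nM). In all, 17 of 45 members were higher and 17 lower with CS1 than with CS2, where 26.2% of all entries were higher and 40.4% lower, around an all-entry median of -0.11. In 21 members every CS1 library stood above every CS2 library and in 17 below, where 27.1% and 40.6% of all entries did. All 4 immune and PA28 genes were higher with CS1, namely PSMB8 (0.56 ± 0.035 SE, adjusted p = 3.28e-09), PSMB10 (0.44 ± 0.072 SE, adjusted p = 6.56e-05), PSME2 (0.34 ± 0.05 SE, adjusted p = 3.23e-05) and PSME1 (0.25 ± 0.033 SE, adjusted p = 8.24e-06). The 3 constitutive catalytic subunits were lower with CS1, with PSMB6 at -0.54 ± 0.039 SE, adjusted p = 1.29e-08, PSMB5 at -0.27 ± 0.048 SE, adjusted p = 0.000166 and PSMB7 at -0.15 ± 0.056 SE, adjusted p = 0.0276, the last called under neither scaling nor without CS1 replicate 1 or 2 or CS2 replicate 1 or 2. The remaining large differences were PSMD8, higher with CS1 (0.56 ± 0.046), and PSMD2, lower with CS1 (-0.55 ± 0.06). After median-of-ratios scaling 22 members were higher and 9 lower, where 31.3% of all entries were higher and 33.4% lower. Larger roles held both directions, with 4 higher and 5 lower of the 11 other core subunits and 3 higher and 3 lower of the 11 non-ATPases.

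The balance of immune and constitutive subunit transcripts was also read as a share of summed TPM within each library. The exchange of subunits in assembled proteasomes was not measured. PSMB8 as a share of PSMB8 plus PSMB5 was 59.3, 59.4 and 58.3% with CS1 and 43.3, 44.2 and 46.5% with CS2, against a mean of 52.9 ± 0.489% with DMSO (SD, n = 4). The CS1 libraries all stood above DMSO and the CS2 libraries all below it; each exact permutation test (two-sided) gave p = 0.0571, the smallest p that 3 against 4 libraries allow. In shFTO libraries it was 59.4, 59.5 and 56.8%, against 61.7, 59.7 and 63.0% in shNS libraries, a difference of -2.89 points with an exact permutation p of 0.1, the smallest that 3 against 3 allow. PSMB10 as a share of PSMB10 plus PSMB7 was 18.5, 18.6 and 18.8% with CS1 and 11.9, 12.9 and 14.7% with CS2, against 14.0 ± 0.497% with DMSO (SD, n = 4; exact permutation p = 0.0571 and 0.343). It was 23.7, 24.0 and 21.3% in shFTO libraries, against 18.5% in each shNS library (exact permutation p = 0.1). With the hairpin the PSMB10 share was thus higher in every library while the PSMB8 share was lower in every library. Across shFTO libraries PSMB7 averaged 169 TPM against 231 TPM in shNS libraries, and PSMB10 averaged 50.2 TPM against 52.4 TPM.

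**Figure D5:**
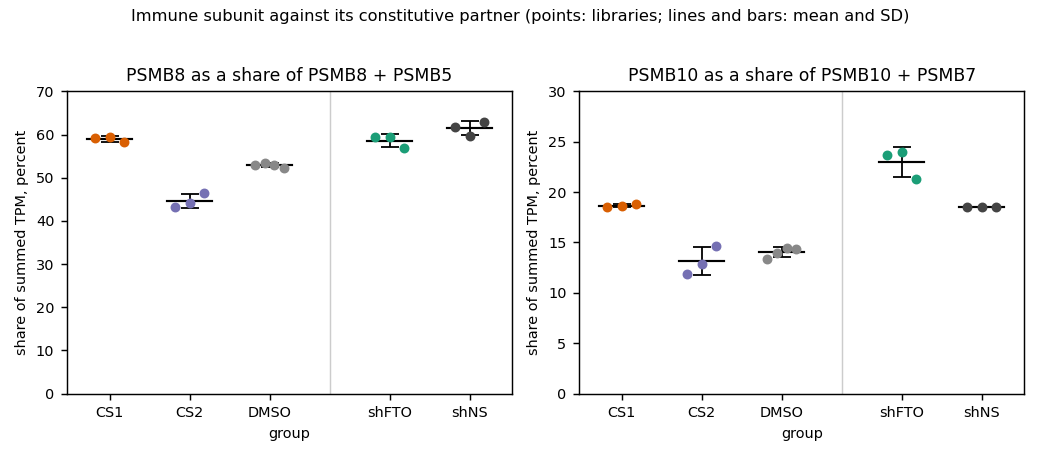
Share of an immune subunit in the summed TPM of itself and its constitutive partner, in percent, for every library (points), with group mean (line) and SD (bar). The PSMB8 share is near 59.0% with CS1, 44.7% with CS2 and 52.9% with DMSO, and the PSMB10 share is near 23.0% in shFTO libraries against 18.5% in shNS libraries.

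The question whether a compound and the hairpin act alike on these genes was put to the difference of the responses, CS1 or CS2 against DMSO minus shFTO against shNS. Within each difference the compound and hairpin contrasts share no library, but the CS1 and CS2 differences share all DMSO, shFTO and shNS libraries, so their counts are not independent. For CS1 the difference was called above 0 in 34 of 45 members and below it in 2, where 31.0% and 18.3% of all entries were called. By sign alone it was above 0 in 39 members and below it in 6. For CS2 the difference was called above 0 in 32 and below it in 3, where 39.8% and 23.7% of all entries were called. By sign alone these were 38 and 7. The differences were above 1 for both compounds in PSME3 (1.58 ± 0.12 SE, adjusted p = 1.04e-07 for CS1 and 1.35 ± 0.12 SE, adjusted p = 1.3e-07 for CS2) and PSMG1 (1.5 ± 0.062 for CS1 and 1.24 ± 0.062 for CS2). PSMB6 had 0.95 ± 0.053 with CS1 and 1.49 ± 0.053 with CS2, the largest difference for CS2, and PSME2 had 1.25 ± 0.069 and 0.91 ± 0.069 in the same order. PSMG2 went the other way, at -0.37 ± 0.052 and -0.34 ± 0.052. PSMD1 fell in all 3 comparisons, by 0.69 with CS1, 0.54 with CS2 and 0.75 with the hairpin, of which the compound comparisons share their DMSO libraries. PSMD1 was not alone: all CS1, CS2 and shFTO libraries of PSMA2, PSMA3, PSMB1 and PSMD6, among others, also stood below all their control libraries. As a description across the 45 members, the change with the hairpin had a Pearson r of 0.04 with that of CS1 and 0.10 with that of CS2, against 0.26 and 0.23 across all entries tested; the points of each comparison share its libraries.

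Proteasome genes outside the PSM symbols were read from a list of 15 symbols, of which 13 were in the table. In shFTO against shNS 8 fell and 3 rose, around a median of -0.16, where 24.5% of all entries fell and 31.9% rose. For the compound counts of this list, 37.5% of all entries rose and 14.3% fell with CS1, and 49.5% rose and 24.6% fell with CS2. After median-of-ratios scaling these shares were 25.9% and 26.6% with CS1, and 36.5% and 35.3% with CS2. ADRM1, the ubiquitin receptor RPN13, fell (-0.58 ± 0.072 SE, adjusted p = 7.04e-06), as did its partner deubiquitinase UCHL5 (-0.40 ± 0.045) and POMP, the maturation factor of the core (-0.36 ± 0.051 SE, adjusted p = 3.08e-05), while ZFAND5, a proteasome activator, rose (0.41 ± 0.048). SHFM1, the older symbol of the small 19S subunit SEM1, fell by 0.17. With CS1 5 rose and 4 fell (2 and 6 after median-of-ratios scaling), led by PAAF1, a chaperone of 19S assembly, which rose (0.69 ± 0.057 SE, adjusted p = 1.3e-07). In those libraries POMP rose by 0.15, a call lost after both scalings and without CS1 replicate 2, SHFM1 fell by 0.15, a call lost without CS1 replicate 1, and ADRM1 averaged 155 ± 2.91 TPM against 155 ± 10 TPM with DMSO (SD, n = 3 and 4) and did not pass the test. With CS2 8 rose and 3 fell (4 and 5 after median-of-ratios scaling), led by PITHD1, which binds the proteasome (0.69 ± 0.034 SE, adjusted p = 8.43e-11), and ADRM1 rose (0.48 ± 0.067 SE, adjusted p = 9.93e-06). The rises with CS1, the falls with CS2 and the scaled counts with CS2 lie near the shares of all entries.

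Of the NFE2L1 axis, 12 of 14 symbols were tested. NFE2L1 itself averaged 79.2 ± 0.577 TPM in shFTO libraries against 54.7 ± 1.46 TPM in shNS libraries (SD, n = 3 each), a rise of 0.53 ± 0.034 SE, adjusted p = 1.19e-08, in the libraries where 39 proteasome genes fell. It rose with CS1 (0.64 ± 0.032 SE, adjusted p = 8.11e-10) and with CS2 (0.52 ± 0.032 SE, adjusted p = 1.05e-09) as well. The related factor NFE2L2 rose in all 3 comparisons, by 0.24 with CS1, 0.70 with CS2 and 0.22 with the hairpin. UFD1L, a cofactor of the unfoldase VCP that helps NFE2L1 leave the endoplasmic reticulum, fell with the hairpin (-0.77 ± 0.053 SE, adjusted p = 2.11e-08). In all, 6 rose and 2 fell with CS1 (3 and 3 after median-of-ratios scaling), 7 rose and 3 fell with CS2, and 5 rose and 3 fell with the hairpin. With CS2 this is near the 49.5% of all entries that rose and the 24.6% that fell. The counts with CS1 and the hairpin also lie near the shares of all entries. These were 37.5% that rose and 14.3% that fell with CS1, and 31.9% and 24.5% with the hairpin. After median-of-ratios scaling 25.9% of all entries rose and 26.6% fell with CS1.

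Genes that trim, carry and present class I peptides were mostly higher in all 3 comparisons. Of 10 tested, 8 rose and 0 fell with CS1, 7 rose and 0 fell with CS2 and 8 rose and 0 fell with the hairpin, with medians of 0.50, 0.83 and 0.55, where 37.5%, 49.5% and 31.9% of all entries rose; after median-of-ratios scaling 3 fell with CS2. HLA-C, a class I heavy chain, had 2781, 2777 and 2483 TPM in shFTO libraries against 1547, 1600.1 and 1611 TPM in shNS libraries (0.75 ± 0.04 SE, adjusted p = 1.29e-09), and rose with CS1 (0.75) and CS2 (0.98). HLA genes are close copies of each other, and how reads shared between them were assigned is not given in the sources used here. TAP1, a subunit of the peptide transporter, rose with CS1 (0.55 ± 0.061 SE, adjusted p = 2.52e-06) and CS2 (1.19 ± 0.061 SE, adjusted p = 1.15e-10), and its change with the hairpin did not pass the test (0.12, adjusted p = 0.115). Of 11 regulators of immunoproteasome genes, 10 rose and 0 fell with CS1, 10 rose and 0 fell with CS2, and 6 rose and 2 fell with the hairpin, and after median-of-ratios scaling 1 fell with each compound; the same shares of all entries apply. IRF1, an interferon-induced activator of PSMB8 and PSMB10, rose in all 3 comparisons, by 0.59, 0.58 and 0.52 in that order, and IRF9, a transcription factor of the interferon response, by 1.65, 1.56 and 1.03. RELB, a subunit of NF-kappa-B, rose by 1.19 with CS1 and 1.96 with CS2. With CS2 these 3 regulators were higher and PSMB8 was lower.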

How the data were processed

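Total RNA from NOMO-1 cells was enriched for mRNA and sequenced, per the labels' protocols. The submitters' processing notes name RSEM 1.2.31 and GRCh38. No aligner, annotation or strand setting is given in the sources used here. The deposited table holds TPM per gene symbol, which the authors computed for each of the 16 libraries without pooling. TPM gives no depth, so read numbers per library are unknown and no counting interval is given.

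Groups came from the sample titles, and columns were matched to samples by name. The 14951 of 26830 entries that reached 1 TPM in 3 or more libraries were fitted with limma 3.58.1 (R 4.3.3; lmFit, eBayes with a mean-variance trend) on log2(TPM + 1), with 1 mean per group over all 16 libraries. Tests were two-sided with Benjamini-Hochberg adjustment over all entries tested and a threshold of 0.05. The procedure was tested on simulated data that drew noise independently for each gene. These held no shift across a whole library, so that test does not bear on the choice of scaling. Immune subunit shares were compared by exact permutation tests over libraries (scipy 1.17.1). Alternatives were a pseudocount of 0.1, no filter, a mean of at least 5 TPM, median-of-ratios scaling, quantile normalization, no trend, a replicate block, only the groups compared, and leaving out each library.

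The members and the gene lists were chosen with earlier results of these data known. Genes given in every library were the immune, PA28 and constitutive catalytic genes and, in each role, the members with the highest and lowest change per comparison; others named were added after their values were seen. Of each further gene list, up to 4 genes with the smallest adjusted p per comparison could be named, plus POMP, SHFM1, ADRM1, NFE2L1, TAP1 and IRF1. Gene positions are from GENCODE release 29 on GRCh38 and promoter windows from RefSeq on GRCh38.p14. PSMB9 and some genes of the class I list are not analysed here. No libraries held identical values.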

Additional observations from a re-analysis of the deposited data

Results flagged for a closer look

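Of 88 genes examined in the 4 DMSO libraries, 3 had 1 library whose gap to the nearest other exceeded the 95% critical value of Dixon's test, which chance gives in about 1 in 20 groups. PSMA5 in DMSO replicate 4 was 49.99 TPM, with DMSO levels of 48.6, 48.4, 48.5 and 49.99 TPM in replicate order. NFKB1 in DMSO replicate 3 was 33.91 TPM, with DMSO levels of 36.3, 36.05, 33.9 and 35.9 TPM. UBB in DMSO replicate 3 was 821.55 TPM, with DMSO levels of 857, 861, 822 and 858 TPM.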

How the results depend on the processing

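The fall of 39 proteasome genes with the FTO hairpin was 39 after median-of-ratios scaling and quantile normalization and with the replicate block, and 38 to 39 when 1 library was left out; the count that rose was 0 after median-of-ratios scaling and 2 after quantile normalization. With the hairpin, 27.8% of all entries fell and 29.2% rose after median-of-ratios scaling, and 29.4% and 27.2% after quantile normalization. The compound counts moved with scaling. For CS1, higher and lower counts of 8 and 14 became 4 and 26 after median-of-ratios scaling and 5 and 27 after quantile normalization; over all entries, 5605 higher and 2142 lower became 3718 higher (quantile) and 3973 (median-of-ratios) or 4267 (quantile) lower. For CS2, 14 and 19 became 4 and 33 after median-of-ratios scaling and 6 and 32 after quantile normalization. With CS2, 36.5% of all entries were higher and 35.3% lower after median-of-ratios scaling, and 36.1% and 35.8% after quantile normalization. After quantile normalization, 24.9% of all entries were higher and 28.5% lower with CS1. Fewer members were called lower with CS1 than with CS2 after median-of-ratios scaling (9). The CS1 response minus the hairpin response was called above 0 in 31 (median-of-ratios) or 29 (quantile) members, down from 34. For CS2 these calls fell from 32 to 26 (quantile) and to fewer still (median-of-ratios). Calls below 0 were 3 (median-of-ratios) or 5 (quantile) for CS1 and 6 or 9 for CS2. Of all 14951 entries, 3910 (median-of-ratios) or 3937 (quantile) were above 0 for CS1, and 3738 or 3742 below. For CS2 4784 or 4843 entries were above 0, and 4694 or 4612 below. By sign alone, 10 members were below 0 for CS1 (quantile), and 12 (median-of-ratios) or 17 (quantile) for CS2. The cause was not tested beyond the centring itself. Same-numbered libraries had correlations of deviations between -0.00925 and 0.219, not all over 0.1 in any pair of groups. Between CS1 and CS2 they were 0.0853, 0.113 and 0.219, against -0.179 to 0.0899 for libraries of different number. These values cannot show whether same-numbered libraries shared a day or culture, and the main fit used no block. With the replicate block the counts were 9 and 14 for CS1, 14 and 19 for CS2 and 1 and 39 for the hairpin. In that fit PSMB7 (0.01) and PSMG3 (0.03) changed sign with CS2.

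Signs of small changes turned as follows. After median-of-ratios scaling and quantile normalization, in that order, CS1 gave ADRM1 -0.13 and -0.11, FTO -0.02 and -0.03, PSMA6 -0.12 and -0.05, PSMB6 -0.07 and -0.05, and PSMG1 -0.06 and -0.03; CS2 gave FTO -0.11 and -0.11, PSME1 -0.16 and -0.16, and SHFM1 -0.14 and 0.00. PSMB5 with CS2 was -0.01 after quantile normalization, PSME4 with the hairpin -0.01 after median-of-ratios scaling, and the CS2 minus hairpin response -0.07 for PSMB8 and for PSME1 after quantile normalization. Leaving out 1 library, CS1 values ranged from -0.03 to 0.04 for ADRM1 and from -0.02 to 0.02 for PSMA6; CS2 values from -0.03 to 0.02 for PSMB7, -0.06 to 0.07 for PSMD10 and -0.07 to 0.05 for PSMG3; PSME4 with the hairpin from 0.00 to 0.06; and PSMB10 in the CS2 minus hairpin response from -0.13 to 0.01. The immune shares kept their direction without any 1 library, with PSMB8 differences of 5.85 to 6.4 points for CS1, -9.21 to -7.58 for CS2 and -3.8 to -1.99 for the hairpin, and PSMB10 differences of 4.36 to 4.72, -1.69 to -0.283 and 4.01 to 5.35. The other pseudocount, filters and the fit without a trend gave the same call for all 181 values of named genes. Over all 45 members these settings moved counts by at most 2: with CS2 12 were higher with no filter and with no trend, and with CS1 15 were lower with a mean of at least 5 TPM. The fit on only the groups compared gave 10 higher and 18 lower with CS1. It gave 14 and 21 with CS2, and 1 and 38 with the hairpin.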

Other observations

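The genes that make ubiquitin and carry tagged proteins to the proteasome were a list of 11, all tested. In shFTO against shNS 1 rose and 7 fell, around a median of -0.22, where 31.9% of all entries rose and 24.5% fell. UBA1, the main ubiquitin-activating enzyme, had 246, 235 and 269 TPM in shFTO libraries against 315, 328 and 326 TPM in shNS libraries (-0.37 ± 0.04 SE, adjusted p = 2.26e-06). RAD23B, a shuttle for ubiquitinated proteins, fell in all 3 comparisons, by 0.25 with CS1, 0.30 with CS2 and 0.33 with the hairpin. With CS1 3 of the list rose and 4 fell, where 37.5% of all entries rose and 14.3% fell. With CS2 6 rose and 4 fell, where 49.5% of all entries rose and 24.6% fell, so the rises are near that share. After median-of-ratios scaling 1 rose and 7 fell with CS1, and 2 and 5 with CS2. In that setting 25.9% of all entries were higher and 26.6% lower with CS1, and 36.5% and 35.3% with CS2. UBQLN2, another shuttle, had 71.2, 70.05 and 64.4 TPM with CS2 against 35.6, 36.4, 33.4 and 33.1 TPM with DMSO (0.96 ± 0.053 SE, adjusted p = 2.92e-10), while with CS1 it fell by 0.20. RPS27A, which encodes ubiquitin fused to a ribosomal protein, had 841, 872 and 884 TPM with CS2 against 1475, 1533, 1656 and 1699.7 TPM with DMSO (-0.88 ± 0.046 SE, adjusted p = 1.83e-10), in libraries where ribosomal protein genes took 8.34% of TPM against 15.3% with DMSO; the part of that in the value was not tested.

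The antisense transcripts PSMG3-AS1 and PSMD5-AS1 were higher with CS1 and lower with CS2 than with DMSO, while PSMB8-AS1 rose with both compounds. PSMG3-AS1 had 5.0, 4.37 and 3.78 TPM with CS1 and 0.29, 0.49 and 0.29 TPM with CS2, against 1.86, 2.11, 1.95 and 2.01 TPM with DMSO, without overlap among the 3 groups. PSMD5-AS1 averaged 5.62 ± 0.764 TPM with CS1 and 2.34 ± 0.0493 TPM with CS2, against 4.13 ± 0.209 TPM with DMSO (SD, n = 3, 3 and 4; limma adjusted p = 0.000626 and 1.37e-06). PSMA3-AS1 passed the test in none of the 3 comparisons as deposited (adjusted p = 0.327, 0.362 and 0.293 for CS1, CS2 and the hairpin), and with CS2 it passed after median-of-ratios scaling (-0.33, adjusted p = 0.00533). PSMD6-AS2 had 4.42, 4.51 and 2.98 TPM with CS1 and 5.46, 4.48 and 3.3 TPM with CS2. With DMSO it had 3.68, 3.76, 3.42 and 3.3 TPM, overlapping both. Across the 45 members the change had a Pearson r of -0.15 for CS1, -0.03 for CS2 and -0.20 for the hairpin with the level in the control libraries, as a description.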
